A study of Mus musculus with 8 samples.

Results

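The solute carriers are the large group of membrane proteins whose mouse symbols start with Slc and a digit or with Slco. Their genes were taken here by symbol, as protein-coding genes listed above 0 in at least 4 of the 8 libraries. This gave 149 members among the 11447 gene identifiers of the tables, from 182 protein-coding genes with such a symbol listed in at least 1 library. Of the members, 112 were listed in all 8 libraries, 18 in 7, 7 in 6, 7 in 5 and 5 in 4. Those 5 were Slc23a1, Slc23a3, Slc43a1, Slc45a3 and Slc9a8, and the 5 genes just outside, listed in 3 libraries, were Slc2a3, Slc29a3, Slc10a6, Slc26a11 and Slc19a2. The symbol rule also takes 4 genes whose proteins are not carriers (Slc9a3r1, Slc9a3r2, Slc4a1ap and Slc7a6os), which were kept as members and set apart below. Tests took genes whose share of cells with a UMI, averaged over libraries, reached 5%, and 140 members did. Those left untested were Slc43a1, Slc8a2, Slc9a8, Slc9a2, Slc18b1, Slc23a3, Slc23a1, Slc35c1 and Slc45a3.

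The cells came from ascending aortas of mice and were profiled singly with 10x Genomics Chromium after sorting for GFP, which the labels give as the mark of smooth muscle cells. The control libraries came from Apoe-/- mice, called Apoe here. The other libraries came from mice labelled TGFBetaRiSMC-Apoe, that is SMC TGFbR2 KO on the ApoE background, called KO here, so both genotypes share the Apoe deficiency. Each genotype had 1 library on the diet labelled ND and 1 each after 1, 2 and 4 months of HFD (1M, 2M and 4M). What drives the deletion or the GFP, the age of the mice and the number of animals in a library are not given in the sources used here. Tgfbr2 has values in the Apoe libraries alone and Apoe in none. The names of the deposited data carry noApoeTgfbr2 or noApoeTgfbr, as if these genes had been taken out. Missing values of these genes therefore could not be used to check the genotype labels.

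Solute carriers move nutrients, ions, metals and metabolites across membranes by facilitated diffusion, cotransport or exchange. The Slc25 family sits mostly in the inner mitochondrial membrane, the Slc35 family brings nucleotide sugars and sulfate donors into the Golgi and endoplasmic reticulum, and most other families work at the cell surface or in lysosomes. In smooth muscle, sodium-coupled exchangers help set cytosolic calcium, pH and chloride, and phosphate uptake through Slc20a1 is known for its link to calcification of vessels.

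The libraries held 1127 to 2659 cells and 9407669 to 19720109 unique molecular identifiers (UMIs). At most 9 cell barcodes were shared by any pair of libraries. The KO 4M library stood apart. The 12 smooth muscle markers summed to 1807 UMIs per 1000000 UMIs of the library (CPM) there and to 26950 to 51740 CPM in the other 7 libraries, and in KO 4M 11 of them were listed (Des was at 0). The 14 chondrocyte markers summed to 36020 CPM in KO 4M (13 listed), 4384 CPM in Apoe 4M, 1499 CPM in KO 2M and 45.64 to 98.28 CPM elsewhere. The macrophage list summed to 2271 CPM in KO 4M (4 of 13 listed, with Lgals3 at 2219 CPM, C1qa at 0 and Csf1r and Adgre1 not listed) and to 64.28 to 599.1 CPM elsewhere. Of 10 endothelial markers Pecam1 and Flt1 alone are in the tables, and both were at 0 in KO 4M. The osteoblast list summed to 12890 CPM in KO 4M against 0 to 1940 CPM elsewhere, and the fibroblast list to 13940 against 734.4 to 5357 CPM. Of the 8 libraries KO 1M alone listed C1qa (68.71 CPM), C1qb and C1qc, and Lyz2 was highest there (113.6 CPM). The part of these cells in the carrier values was not tested, and the fit without marked cells given below is limited by how few markers are listed. The median cell had 10988 UMIs in KO 4M and 6966 in Apoe 4M. A level summed over a library cannot tell more expressing cells from more RNA per cell.

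Promoter windows are shown for 3 members whose level changed with months of diet in KO, to let a reader see the sequence in front of genes that moved in opposite directions. Slc29a1 rose, and Slc38a2 and Slc24a3 fell. Each window is the 250 bases before the RefSeq start on the gene's strand (GRCm38.p6), 5′ to 3′. Of the 250 bases, 21 for Slc24a3 and 2 for Slc38a2 lie in annotated exons. Capitals mark the GC box GGGCGG on either strand, and Slc29a1 holds none. The windows are chr17:45599619-45599868 (minus strand), chr15:96699729-96699978 (minus strand) and chr2:145167525-145167774 (plus strand).
Slc29a1: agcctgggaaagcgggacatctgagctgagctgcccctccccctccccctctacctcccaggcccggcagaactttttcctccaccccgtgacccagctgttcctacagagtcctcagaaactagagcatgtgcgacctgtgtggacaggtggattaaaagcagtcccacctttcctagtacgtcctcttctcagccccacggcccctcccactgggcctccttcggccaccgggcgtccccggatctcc
Slc38a2: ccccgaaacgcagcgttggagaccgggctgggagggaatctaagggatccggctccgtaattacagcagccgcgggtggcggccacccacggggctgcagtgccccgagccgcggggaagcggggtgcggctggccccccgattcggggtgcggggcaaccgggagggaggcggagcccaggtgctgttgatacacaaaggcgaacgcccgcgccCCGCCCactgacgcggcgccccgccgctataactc
Slc24a3: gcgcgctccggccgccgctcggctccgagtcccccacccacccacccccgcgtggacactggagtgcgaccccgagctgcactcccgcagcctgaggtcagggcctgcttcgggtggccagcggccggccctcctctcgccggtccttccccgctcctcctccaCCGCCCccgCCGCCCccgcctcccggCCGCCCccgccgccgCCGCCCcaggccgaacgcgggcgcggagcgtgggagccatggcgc
The RefSeq table had a window for 112 of the 149 members, and some windows lie in annotated exons, such as all 250 bases for Slc20a1 and 169 for Slc3a2. Both strands of these windows were searched for the GC box, the CCAAT box (CCAAT), the C/EBP-ATF composite element TGATGNAA and the CArG box. The GC box was in 76 of the 112 windows (67.9%) against 32.9% of 27025 windows of all genes. Those 27025 windows include genes not listed in these libraries, while members were kept only if listed. No share over listed genes alone was computed, so the higher share is not shown to be particular to carriers. CCAAT was in 33.9% of member windows against 34.5% of all windows. The composite element was in 3 member windows (2.68% against 3.53%) and the CArG box in 1 (0.893% against 1.4%). Matches are letters in a window and were not tied to binding.

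As a family, the solute carriers took a steady share of the RNA. Their summed level was 0.6176% of all UMIs in KO 4M, the lowest, and 0.6649% in Apoe 2M, the highest. Within this sum the classes moved apart in KO 4M, as the plot of class sums shows. Mitochondrial carriers, taken as the whole Slc25 family, summed to 1655 CPM in KO 4M and to 2031 to 2594 CPM in the other 7 libraries. Carriers of sugars and organic acids stood at 393.9 CPM against 581.1 to 705.5, and ion carriers at 203.9 against 278.7 to 371.0. In KO 4M 10 of 17 sugar and organic acid carriers were listed (16 to 17 elsewhere). Of 16 ion carriers 11 were listed there (12 to 16 elsewhere), and of 31 mitochondrial carriers 27 (29 to 31 elsewhere). Members seen in under 5% of cells enter these sums as 0, so the low sums are not a fall of listed members alone. Carriers of nucleotide sugars and other Golgi or endoplasmic reticulum substrates stood at 644.9 CPM against 422.1 to 475.8, those of metals and phosphate at 1134 against 928.0 to 996.4, and those of amino acids and peptides at 1414 against 1017 to 1253. In these 6 classes KO 4M lay outside the range of the other libraries, with 1 library behind each value and no test. The 2 last sums were each carried by 1 gene, as computed after the data were seen. Without Slc20a1 the metal and phosphate carriers summed to 787 CPM in KO 4M against 859.2 to 955.7 CPM elsewhere. Without Slc3a2 the amino acid carriers summed to 800.2 CPM against 836.5 to 1118 CPM, so in CPM KO 4M was then the lowest library in both. The mitochondrial, sugar, ion and nucleotide sugar classes kept their side in CPM without their most deviant member. Trimmed-mean factors on summed UMIs were 0.860 in KO 4M and 1.006 to 1.042 in the other libraries. Division by them would raise KO 4M against the rest. The class sums were not rescaled, so the low sides are shown for CPM only.

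**Figure D1:**
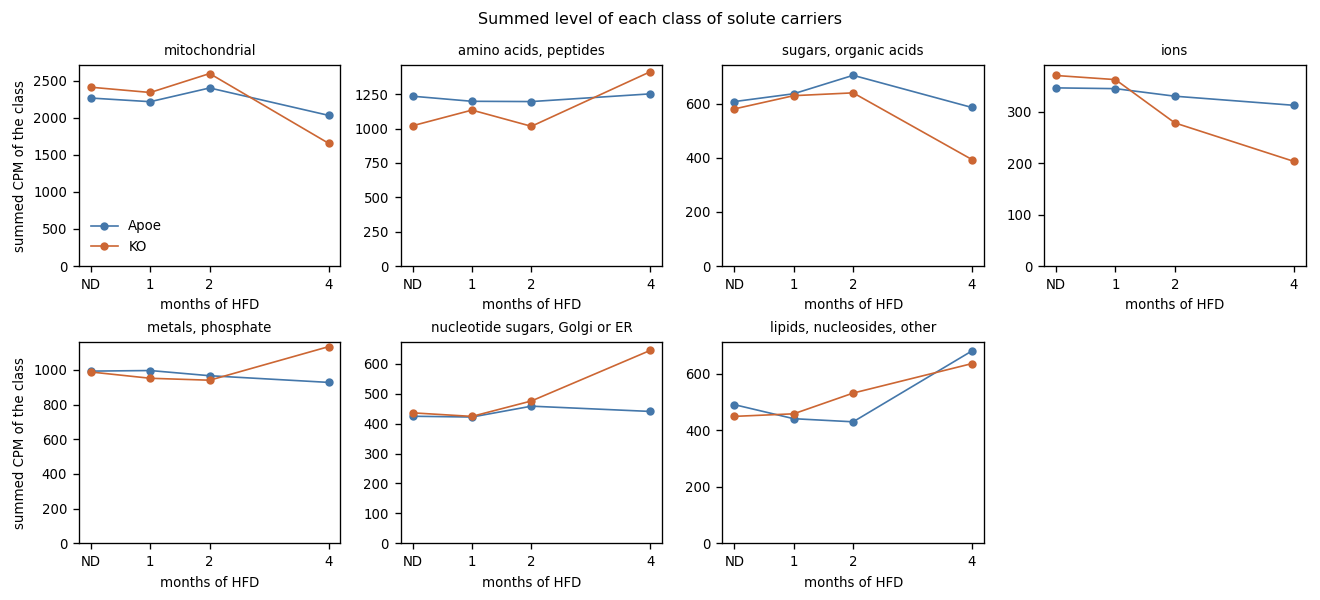
Summed CPM of 7 classes of solute carriers (vertical axes, from 0) against months of HFD (horizontal axes, ND at 0) in Apoe (blue) and KO (orange), 1 library per point. KO 4M is lowest for mitochondrial, sugar and ion carriers and highest for nucleotide sugar carriers, and for metal and amino acid carriers it is highest with Slc20a1 and Slc3a2 and lowest without them. The sums are in CPM and were not scaled by trimmed-mean factors, and members listed at 0 enter as 0.

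The first comparison asked which carriers changed with months of high fat diet within each genotype. The slope is the change of the mean log2 value per month, zeros included, so it is no fold change. In KO, 25 of 140 members passed an adjusted p of 0.05 (17.9%, limma), against 22.5% of the 9254 genes tested. Of these, 10 rose (7.14%, against 6.8% of all genes) and 15 fell (10.7%, against 15.7%), so the members were called less often than all genes here; on linear means of CPM with 1 added the order was the other way (33.6% of members, 26.7% of all genes). The median slope was -0.0047 over members and -0.0049 over all genes. Among those that rose were Slc3a2, Slc20a1, Slc29a1, Slc7a2, Slc35b2, Slc35a2, Slc23a2, Slc22a17 and Slc35f5. Among those that fell were Slc38a2, Slc48a1, Slc25a4, Slc24a3, Slc9a3r1, Slc25a23, Slc16a7, Slc4a3, Slc4a2, Slco3a1, Slc12a2, Slc2a4, Slc20a2 and Slc45a4. In Apoe 0 members passed (limma; 15 at an unadjusted p under 0.05, or 10.7%, against 12.6% of all genes), and so did 0% of all genes.

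The KO calls rest on the KO 4M library: without it 0 members passed (21 at an unadjusted p under 0.05), and 0 passed without the ND or the 1M libraries, while 41 passed without 2M (29.3%, against 33.1% of all genes). Over all genes 0% passed too without KO 4M, ND or 1M. Trimmed-mean factors on summed UMIs gave 27 higher and 21 lower members (34.3%, against 27.1% of all genes). Values from the diet tables gave 4 higher and 18 lower (15.7%, against 20.8%). With cells thinned to 2905 UMIs each, 9 passed (3 higher, 6 lower, 6.43% against 8.08%). Of the macrophage, endothelial, lymphocyte and Schwann cell markers, 10 are in the tables. Leaving out cells with at least 3 of them (344 in KO 4M, 20 to 137 elsewhere) gave 10 higher and 15 lower, 24 of them among the 25 (17.9%, against 22.3% of all genes). Only 3 to 5 of the 10 were listed in each library but KO 1M (9). In KO 4M the 5 listed included Lgals3 (2219 CPM) and S100b (238.8 CPM). With so few markers the filter cannot single out other cell types, so this fit does not decide their part. The difference between the slopes of the genotypes was tested too, and 0 of 140 members passed (26 at an unadjusted p under 0.05, or 18.6%, against 21.1% of all genes, limma), as did 0% of all genes. The KO slopes are therefore not shown to differ from the Apoe slopes.

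**Figure D2:**
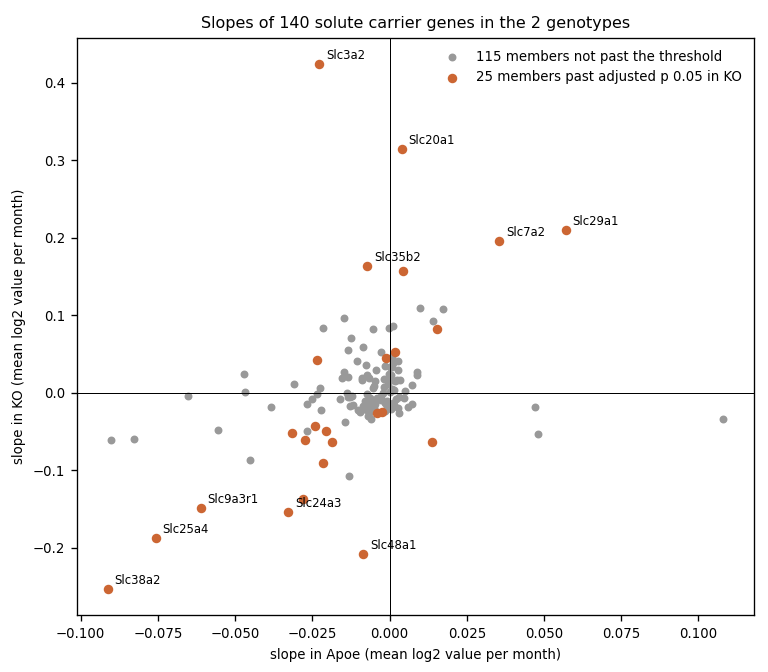
Slope per month in KO (vertical axis) against slope in Apoe (horizontal axis, a narrower range), both as mean log2 value per month, for 140 members. Orange points mark the 25 members past the threshold in KO. Slc3a2 has the highest KO slope (0.425) and Slc38a2 the lowest (-0.253).

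Over both genotypes together, a common slope passed for 2 members (1.43%, against 5.55% of all genes), and both fell (5.4% of all genes fell). Slc2a1, the basal glucose transporter, had a common slope of -0.0515 ± 0.0106 per month (SE, adjusted p = 0.0484, limma). Its level was 88.0, 91.93, 99.04 and 64.2 CPM in Apoe from ND to 4M and 71.89, 87.08, 70.94 and 50.87 CPM in KO. Both 4M libraries were the lowest of their genotype. Slc12a2, which brings sodium, potassium and chloride into the cell together, had a common slope of -0.0416 ± 0.0077 (adjusted p = 0.0425, limma). It stood at 34.72, 34.61, 38.39 and 22.32 CPM in Apoe, while KO had 32.58, 36.15, 24.87 and 10.49 CPM. Without KO 4M neither passed, and 3 others did (2.14%, against 3.8% of all genes): Slc7a6os and Slc39a6 lower and Slc6a6 higher. These 3 were named after their values were seen.

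The second comparison asked which carriers differed between the genotypes over the 4 diets. By limma 0 of 140 members passed an adjusted p of 0.05, against 0.151% of all genes, and 11 had an unadjusted p under 0.05 (7.86%, against 14% of all genes). The nearest effects were those of Slc15a2, a peptide transporter (-0.0965 ± 0.0147, adjusted p = 0.158), and Slc25a5, an ADP/ATP carrier of mitochondria (0.2665 ± 0.0438, adjusted p = 0.158). Slc15a2 was listed in all 4 Apoe libraries (10.31 to 18.34 CPM) and in KO 1M alone (6.596 CPM). Without the 4M libraries, or without KO 4M, 1 member passed, Slc38a2, at -0.375 (adjusted p = 0.0491, limma), which is 0.714% of members against 2.54% of all genes.

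Among members listed in all 8 libraries, 2 were higher in every KO than in every Apoe library (1.79%, against 2.55% of all such genes). They were Slc35b1, which exchanges ATP and ADP at the endoplasmic reticulum, and Slc33a1, which brings acetyl-CoA into it. Slc35b1 ran between 57.62 and 64.99 CPM in Apoe, below the 65.79 to 78.61 CPM of KO. The 6 that were lower in every KO library (5.36%, against 6.89%) were Slc1a5, Slc16a10, Slc38a2, Slc2a10, Slc7a6 and Slc36a4. Of these Slc1a5, Slc38a2, Slc7a6 and Slc36a4 carry amino acids, and Slc16a10 carries aromatic amino acids and thyroid hormone. The lowest Apoe and highest KO values lay apart for Slc38a2, at 598.2 and 530.3 CPM. They were 51.37 and 51.01 CPM for Slc1a5, 21.79 and 21.56 for Slc16a10, and 15.42 and 15.06 for Slc36a4. Slc7a6 had 19.28 and 18.52 CPM, and Slc2a10 15.12 and 14.26. The gaps, also those of Slc35b1 and Slc33a1, were not tested against counting error. Order alone thus does not show a genotype difference. The class of amino acid and peptide carriers was not lower in KO as a whole. Its median genotype effect was 0.0236, with 12 of 18 tested members above 0 (66.7%), against 0.0115 and 60.8% over all genes. Beside these values, the 17 genes of the dissociation and stress list summed to 13160 to 17210 CPM in Apoe and 6337 to 11210 CPM in KO, with 0 of 17 past the threshold in the genotype effect, and their part in the carrier values was not tested. One member, Slc45a3, was listed in all 4 Apoe libraries (7.022 to 8.722 CPM) and at 0 in all KO libraries. It was seen in 5.263% to 7.633% of Apoe cells, close to the 5% under which a gene is listed at 0, and 5.88% of the 289 genes listed in exactly 4 libraries were listed in the Apoe libraries alone.

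Among the 19 carriers of amino acids and peptides, 2 rose in KO and 1 fell. Slc3a2 is the heavy chain that brings several amino acid exchangers, such as Slc7a5, to the cell surface and also binds integrins (chromosome 19, 8706882 to 8723369, minus strand, GRCm38). It stood at 117.7, 120.2, 158.7 and 140.5 CPM in Apoe from ND to 4M and at 108.5, 168.2, 180.7 and 613.5 CPM in KO. KO 4M was far above the other 7 libraries, which overlapped between genotypes. Its KO slope was 0.425 ± 0.090 per month (adjusted p = 0.0359, limma), and at 4M the KO level was 4.37 times the Apoe level, with counting intervals of 602.2 to 624.9 and 133.0 to 148.3 CPM. Intervals are exact 95% Poisson intervals and cover counting error only.

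Slc7a2, a transporter of arginine and other cationic amino acids, rose by 0.195 ± 0.047 per month in KO (adjusted p = 0.0415, limma). It was listed at 5.986, 0, 8.164 and 30.19 CPM in Apoe, while KO had 9.889, 0, 15.72 and 119.2 CPM. The 4M library was the highest in each genotype. Slc7a5, the light chain best known as partner of Slc3a2, was at 25.94 to 33.48 CPM in 7 libraries and 69.34 CPM in KO 4M, with a KO slope of 0.084 ± 0.028 that did not pass (adjusted p = 0.0803, limma).

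Slc38a2 went the other way. It is a sodium-coupled carrier of neutral amino acids that cells commonly raise when amino acids run short (chromosome 15, 96687392 to 96699730, minus strand). It stood at 681.7, 682.3, 598.2 and 599.2 CPM in Apoe, while KO had 500.7, 530.3, 390.3 and 191.3 CPM. All KO libraries lay below all Apoe libraries. In KO it fell by 0.253 ± 0.035 per month (adjusted p = 0.0197, limma). The taurine carrier Slc6a6 climbed in Apoe in CPM from 67.35 through 76.96 and 86.05 to 119.6, and in KO it stood at 82.51, 104.2, 123.7 and 49.72 CPM. Neither slope passed.

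Of the 22 carriers of metals and phosphate, all were listed in every library, and 1 rose and 2 fell in KO. Slc20a1 takes up phosphate with sodium (chromosome 2, 129198764 to 129211616, plus strand). It was at 41.46, 40.7, 40.62 and 68.77 CPM in Apoe, while KO had 38.1, 47.17, 57.85 and 346.5 CPM. The KO 4M level was 5.04 times that of Apoe 4M, while on ND the KO level was 0.919 times the Apoe level. Its KO slope was 0.314 ± 0.079 (adjusted p = 0.0452, limma) and turned to -0.020 without KO 4M. The related phosphate carrier Slc20a2 fell by 0.0435 ± 0.0095 per month in KO (adjusted p = 0.0374, limma), with 30.31, 35.73, 28.92 and 11.69 CPM there and 27.11 to 38.24 CPM in Apoe.

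Slc48a1, which moves heme out of lysosomes and endosomes, fell by 0.208 ± 0.040 in KO (adjusted p = 0.0319, limma). It held at 218.1 to 248.7 CPM in Apoe and stood at 222.3, 211.2, 239.0 and 67.37 CPM in KO, so the lower level was in KO 4M alone. The zinc importer Slc39a1 was lower at 4M in both genotypes, with 271.3, 292.1, 223.8 and 172.5 CPM in Apoe and 314.4, 273.9, 229.3 and 189.8 CPM in KO, but no slope passed. The copper importer Slc31a1 (19.05 to 28.3 CPM in 7 libraries, 53.16 in KO 4M), the iron importer Slc11a2 (12.11 to 17.6 against 36.23) and the metal importer Slc39a14 (16.03 to 34.65 against 69.94) were highest in KO 4M. Their KO slopes of 0.082, 0.053 and 0.109 had adjusted p of 0.0517, 0.0526 and 0.0595 (limma).

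The 18 carriers of nucleotide sugars and other Golgi or endoplasmic reticulum substrates held 3 that rose in KO and 0 that fell. Slc35b2 brings the sulfate donor PAPS into the Golgi, where proteoglycans are sulfated. It rose by 0.164 ± 0.038 per month (adjusted p = 0.0410, limma), with 45.36 to 51.13 CPM in Apoe and 44.42, 45.25, 56.15 and 127.7 CPM in KO. Slc35a2, the carrier of UDP-galactose, rose by 0.157 ± 0.036 (adjusted p = 0.0399, limma), with 22, 23.57, 27.28 and 28.7 CPM in Apoe and 21.24, 21.71, 29.75 and 95.56 CPM in KO. In both genes the genotypes overlapped up to 2M and KO 4M stood alone. Slc35f5 rose by 0.042 ± 0.010 (adjusted p = 0.0413, limma) from a lower start: 28.77, 35.73, 38.35 and 44.97 CPM in KO against 43.16 to 58.92 CPM in Apoe.

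Of the 31 Slc25 members, classed here by family as mitochondrial carriers, 0 rose and 3 fell in KO. Slc25a4 is the ADP/ATP carrier typical of muscle and Slc25a5 a more widely expressed form. Slc25a4 stood at 764.1, 755.5, 840.6 and 681.5 CPM in Apoe, while KO had 859.6, 834.8, 982.2 and 435.5 CPM. KO was above Apoe on 3 diets and below it at 4M, and the KO slope was -0.187 ± 0.049 (adjusted p = 0.0496, limma). Slc25a5 was above Apoe in KO on every diet, with 378.3, 380.1, 444.3 and 308.9 CPM in Apoe and 456.3, 448.7, 493.2 and 370.5 CPM in KO, and its KO slope did not pass (-0.061, adjusted p = 0.175, limma). The phosphate carrier Slc25a3 kept within 384.9 to 490.6 CPM over the 8 libraries.

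Slc25a23, a calcium-dependent carrier of ATP-Mg and phosphate, fell by 0.137 ± 0.014 in KO (adjusted p = 0.0132, limma). It was at 63.79, 55.11 and 44.43 CPM in KO up to 2M and listed at 0 in KO 4M, against 45.94 to 61.21 CPM in Apoe. A listing at 0 means seen in under 5% of cells, and it enters the fit as 0. Slc25a25, of the same group of carriers, was at 33.06 to 70.03 CPM in Apoe, while KO had 23.99, 34.57, 31.5 and 9.671 CPM, and its KO slope did not pass.

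Of the 17 carriers of sugars and organic acids, 1 rose and 3 fell in KO. Slc2a4, the insulin-responsive glucose transporter of muscle and fat, fell by 0.061 ± 0.012 (adjusted p = 0.0329, limma). It stood at 33.15, 26.73, 31.14 and 20.2 CPM in Apoe, while KO had 26.75, 24.8 and 26.79 CPM up to 2M and a listing at 0 in KO 4M. Slc16a7, a carrier of pyruvate and lactate, fell by 0.0905 ± 0.0117 (adjusted p = 0.0188, limma) and was also at 0 in KO 4M. The lactate exporter Slc16a3 was at 18.81 to 33.77 CPM in Apoe, while KO had 20.34 to 23.96 CPM up to 2M, with 0 in KO 4M and a slope that did not pass (adjusted p = 0.0539, limma). The myo-inositol carrier Slc5a3, an osmotic stress gene, was at 211.9 to 303.2 CPM in 7 libraries and at 138.8 CPM in KO 4M (KO slope -0.107, adjusted p = 0.117, limma).

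Of the 16 ion carriers 0 rose and 4 fell in KO. Slc24a3 exchanges sodium for calcium and potassium across the membrane. It stood at 46.17, 47.79, 34.84 and 34.65 CPM in Apoe, while KO had 69.95, 62.12 and 39.44 CPM up to 2M, with a listing at 0 in KO 4M. KO began above Apoe and the genotypes came together by 2M. Its KO slope of -0.1535 ± 0.0127 (adjusted p = 0.00977, limma) was -0.150 without KO 4M, though it no longer passed (adjusted p = 0.203), and it was the only member called with the rank of time in place of months (adjusted p = 0.0491).

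The anion exchangers Slc4a2 and Slc4a3, which swap chloride for bicarbonate, fell by 0.049 ± 0.008 (adjusted p = 0.0250, limma) and 0.063 ± 0.009 (adjusted p = 0.0213, limma). Slc4a3 stood at 29.34 to 35.11 CPM in Apoe, while KO had 32.34, 35.73, 27.72 and 5.409 CPM. Slc12a2 fell in KO by 0.0515 ± 0.0098 (adjusted p = 0.0312, limma). Slc12a4, which carries potassium and chloride out of the cell, stayed within 42.85 to 49 CPM over all 8 libraries. Slc26a2, a sulfate carrier needed by cartilage, was at 10.77 to 17.54 CPM in 7 libraries and at 51.63 CPM in KO 4M, and its KO slope did not pass (0.083, adjusted p = 0.0637, limma).

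The 22 carriers of lipids, nucleosides, vitamins and organic solutes held 3 that rose and 1 that fell in KO. Slc29a1, which equilibrates adenosine and other nucleosides (chromosome 17, 45585200 to 45599606, minus strand), rose by 0.211 ± 0.052 (adjusted p = 0.0432, limma). It was at 123.8, 121.4, 110.5 and 201.6 CPM in Apoe, while KO had 92.64, 104.1, 138.3 and 245.3 CPM. The 4M library was the highest in both genotypes. The ascorbate carrier Slc23a2 rose by 0.053 ± 0.014 (adjusted p = 0.0477) and Slc22a17 by 0.044 ± 0.011 (adjusted p = 0.0446, limma).

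Slco3a1, of the organic anion transporters, fell by 0.064 ± 0.011 in KO (adjusted p = 0.0277, limma), with 34.82 to 52.19 CPM in Apoe and 41.66, 40.24, 38.29 and 10.98 CPM in KO. Slco2a1 takes up prostaglandins. It was listed at 0, 0, 9.533 and 34.65 CPM in Apoe, while KO had 40.93, 17.37, 64.81 and 17.05 CPM, and no fit called it.

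Of the 4 genes that are not carriers, Slc9a3r1, a scaffold protein under the membrane, fell by 0.149 ± 0.028 in KO (adjusted p = 0.0296, limma). It stood at 61.06, 62.2, 71.15 and 31.57 CPM in Apoe, while KO had 68.57, 74.14, 66.45 and 0 CPM.

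**Figure D3:**
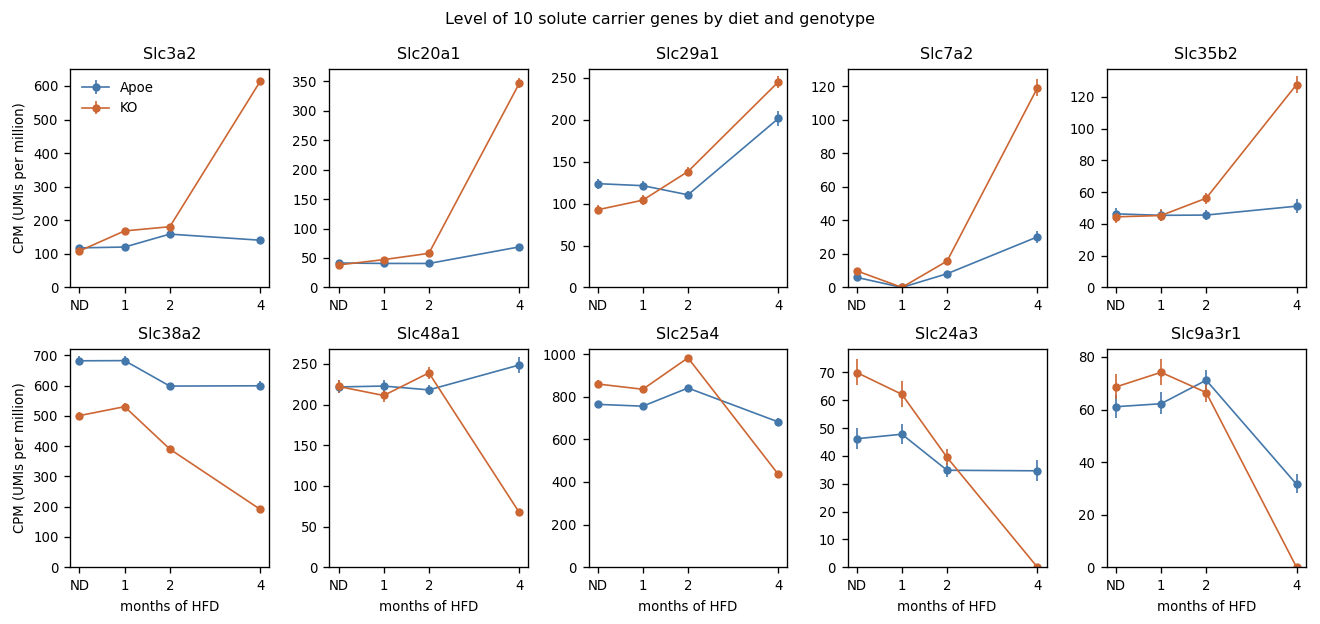
CPM (vertical axes, from 0) against months of HFD (horizontal axes) for the 5 members with the highest and the 5 with the lowest slope among those called in KO. Blue is Apoe and orange is KO, 1 library per point, with exact Poisson 95% intervals as bars, and a point at 0 is a gene listed at 0. Slc3a2 reaches 613.5 CPM and Slc20a1 346.5 CPM in KO 4M, while Slc24a3 and Slc9a3r1 are listed at 0 there.

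On single diets the genotypes could be compared only as values of 1 library each, as differences of log2(CPM + 1). On ND 1 of 143 members listed in both libraries differed by 1 or more (0.699%, against 2.12% of all genes, 1.37% lower): Slc25a29, a mitochondrial carrier of basic amino acids, lower in KO by 1.05. At 1M 2 of 142 did (1.41%, against 1.53%), both lower in KO (0.77% of all genes were): Slc15a2 and Slc25a34. At 2M 5 of 130 did (3.85%, against 3.33%). Slco2a1 was higher in KO by 2.64 (0.769%, against 1.16% of all genes higher), and the zinc exporter Slc30a1, Slc25a25, Slc35d1, a carrier of UDP-glucuronic acid into the endoplasmic reticulum, and Slc16a10 were lower (3.08%, against 2.17%). At 4M 30 of 119 did (25.2%, against 23.6%), 14 higher (11.8%, against 6.59%) and 16 lower (13.4%, against 17%). The highest at 4M were Slc20a1 (2.32), Slc3a2 (2.12), Slc7a2 (1.95) and Slc35a2 (1.70), and the lowest were Slc4a3 (-2.24), Slco3a1 (-2.15), Slc48a1 (-1.87) and Slc25a25 (-1.67).

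**Figure D4:**
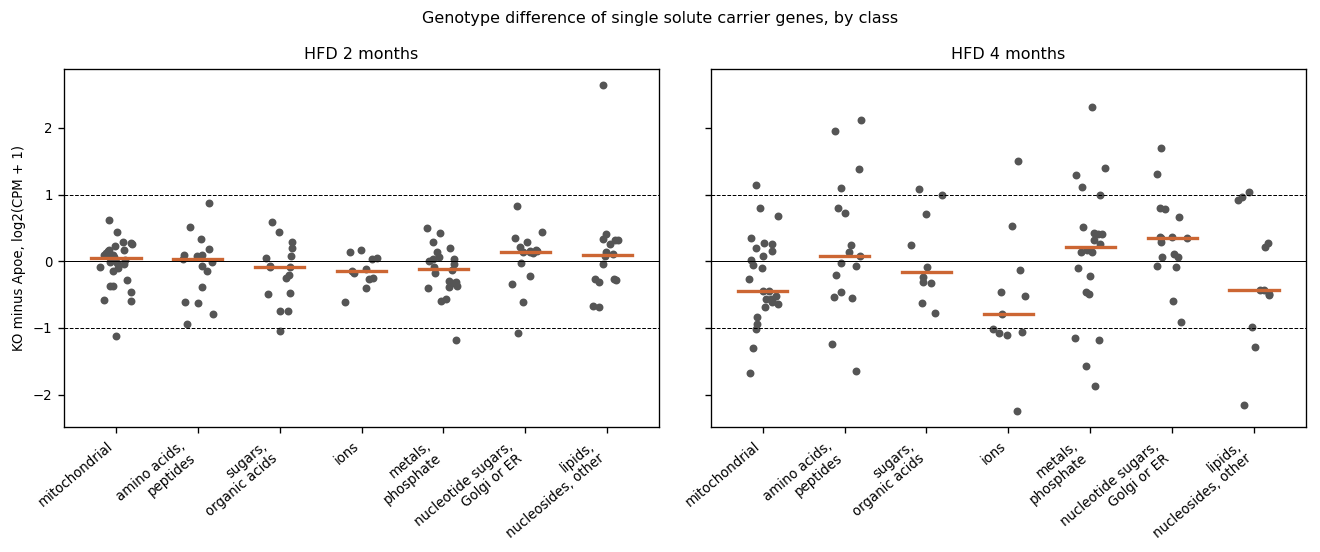
Difference KO minus Apoe in log2(CPM + 1) (vertical axis) of single members by class (horizontal axis) at 2M (left) and 4M (right). Points are genes listed in both libraries, orange bars are class medians and dashed lines mark differences of 1. Members at 0 in either library, such as Slc24a3 at 4M, are left out of the medians. The medians at 4M were -0.441 for mitochondrial, -0.798 for ion and 0.352 for nucleotide sugar carriers.

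KO 4M was set against the other 7 libraries for members listed in all 8. It was at least 1.5 times above all of them for 19 of 112 members (17%, against 7.34% of all such genes) and at least 1.5 times below for 21 (18.8%, against 21.7%). The cartilage and smooth muscle markers given above moved with this library, and their part in these values was not tested.

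Within KO 4M, cells were ranked by their share of Col2a1, a cartilage collagen, and the 394 cells with the lowest and the 394 with the highest share, of 1577, were summed as a lowest and a highest set. This split was chosen after the data were seen. A set is a range and not a cell type, with 185 cells of the library within 20% of the lower bound and 172 of the upper bound. Col2a1 stood at 1062 and 27770 CPM and Acta2 at 3190 and 130.8 CPM in the lowest and highest set, with medians of 8084.5 and 13920 UMIs per cell. Of 124 members with 20 or more UMIs in either set, 12 were at least 1.5 times higher in the highest set (9.68%, against 7.69% of all genes) and 33 at least 1.5 times lower (26.6%, against 29.8%). Cells of 1 library are not replicates, so no test was made.

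Slc26a2 differed most among those higher, at 17.56 CPM (13.43 to 22.55) in the lowest and 83.26 CPM (75.67 to 91.4) in the highest set. Slc35a2 went from 56.41 to 129.5 CPM, Slc35b2 from 92.96 to 155.6, Slc44a2 (a choline transporter-like protein) from 99.58 to 206.5 and Slc3a2 from 421.6 to 637.2. These single carriers of sulfate, sulfate donor and UDP-galactose, named after their values were seen, were thus higher where Col2a1 was higher. Other members of the Golgi or endoplasmic reticulum class went either way. Slc35a3 went from 10.07 to 16.42 CPM, Slc35a5 from 25.04 to 12.65 and Slc35b1 from 78.28 to 55.69. Slco2a1 (62.17 to 4.72 CPM), Slco3a1 (27.63 to 6.419), Slc48a1 (133.8 to 49.08), Slc6a6 (90.08 to 33.98) and Slc7a2 (141.6 to 77.78) were lower in the highest set. Slc20a1 was at 288.4 and 313.0 CPM, both far above its level of 38.1 to 68.77 CPM in the other 7 libraries, so its high level in KO 4M was seen at both ends of the Col2a1 range.

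In Apoe 4M the same ranking gave sets of 308 cells with Col2a1 at 0 and 9718 CPM. All 308 cells of the lowest set had no Col2a1 UMI, and cells with equal shares were taken in their stored order. The highest set began at 133.4 CPM and reached 118500 CPM, with 153 cells of the library within 20% of its lower bound. That bound is about a single UMI in a cell of median depth (6966 UMIs), so entry near it depends on depth. The sets are therefore not cells rich and poor in cartilage RNA. In KO 4M the lowest set ended at 1558 CPM. In Apoe 4M 18 of 138 members were at least 1.5 times higher in the highest set (13%, against 6.26% of all genes) and 18 lower (13%, against 10.4%). Slc20a1 went from 50.01 CPM (41.06 to 60.33) to 151.9 CPM (136.9 to 168.2), Slc7a2 from 15.6 to 58.0, Slc3a2 from 112.9 to 212.4 and Slc26a2 from 14.68 to 29. The sets of the 2 libraries cover unlike ranges, so their directions were not compared.

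**Figure D5:**
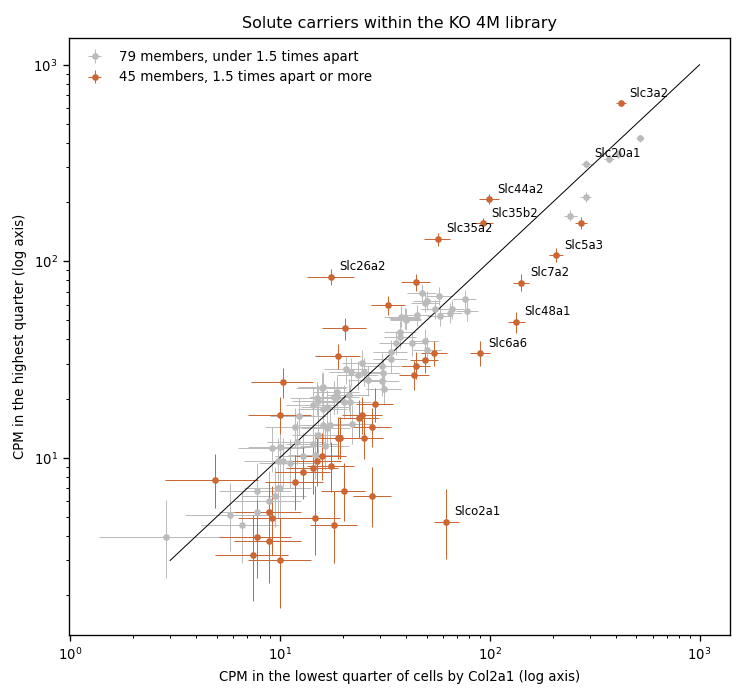
CPM of 124 members in the highest (vertical axis) against the lowest set (horizontal axis) of KO 4M cells by Col2a1, both on log axes, with exact Poisson 95% intervals as bars and equality as the line. Orange points are at least 1.5 times apart. Slc26a2 lies far above the line (17.56 and 83.26 CPM) and Slco2a1 far below it (62.17 and 4.72 CPM).

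Genes with a solute carrier symbol that were listed in 1 library alone numbered 22, of which 15 were in KO 4M, 4 in KO ND and 3 in Apoe 4M. Over all protein-coding genes listed in 1 library alone, 77.2% were in KO 4M. The highest there were Slc38a3, a glutamine carrier (66.22 CPM), Slc8a3, a sodium-calcium exchanger (60.21 CPM), and the organic cation carrier Slc22a4 (49.56 CPM). Slc40a1, which exports iron, was at 16.5 CPM in KO 4M. In Apoe 4M alone Slc22a3 was listed at 52.4 CPM.

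Other genes of transport were followed in lists, to be read against the 6.8% of all genes that rose and the 15.7% that fell in KO. Of 12 tested sodium and calcium pump genes 2 rose and 8 fell in KO, with a median slope of -0.1095 against -0.0049 over all genes. Atp2a2, the calcium pump of the sarcoplasmic reticulum, fell from 381.8 CPM in KO ND to 102.6 in KO 4M (-0.300 ± 0.019, adjusted p = 0.00971, limma), and Atp2b1, a calcium pump of the cell surface, rose from 84.62 to 373.7 CPM (0.359 ± 0.086, adjusted p = 0.0414, limma). Of 18 tested amino acid response genes 8 rose and 0 fell, with a median slope of 0.0914. Among them were Asns, which makes asparagine (92.18 CPM in KO 4M, and at 0 on ND and at 1M), and Mthfd2, an enzyme of mitochondrial folate metabolism (25.86 CPM in KO ND and 198.1 in KO 4M). Slc3a2 and Slc7a5 are known to rise with such genes, and Slc38a2, also known for it, fell. The KO slope of Slc7a5 did not pass, nor did that of Atf4 in this list (0.1010, adjusted p = 0.451, limma). A link between the list and these carriers was not tested.

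Of 13 tested genes of zinc and iron handling 5 rose and 0 fell, among them the metallothionein Mt1 and the iron oxidase Cp. Of 9 osmotic stress genes 0 rose and 3 fell (Akr1b3, Wnk1 and Hspa4l). Among 20 carriers of the superfamily without the symbol, 2 rose (Ank, which exports pyrophosphate and ATP, from 52.44 to 314.4 CPM, and Cnnm4) and 5 fell (Mpc2, Mtch1, Mtch2, Mfsd14a and the phosphate exporter Xpr1). Xpr1 stood at 78.14 to 101.7 CPM in Apoe, while KO had 58.6, 63.12, 52.59 and 17.43 CPM. Of 15 mitochondrial porins and import channels 1 rose and 1 fell (Vdac2). All these calls come from the KO slope over 4 libraries, where 0% of all genes passed without KO 4M.

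A gene that shares exons with another is uncertain where the counting could not part them, and no source used here gives the strand setting of the counting. Such members include Slc48a1 (with Hdac7), Slc4a2 (with Fastk), Slc25a25 (with Naif1) and Slc20a1 (with 9830144P21Rik) on opposite strands, and Slc5a3 (with Mrps6) on the same strand. With 1 library per genotype and diet, each error is how far libraries scatter about the fitted additive or straight-line model.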

How the data were processed

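Cells of 8 libraries were analysed from 6 deposited tables, 2 of them time courses of 1 genotype and 4 of them single diets. The deposited values are log2 values that the authors scaled per cell with trimmed-mean factors (per the file names). Tools named in the submitters' processing notes are STAR, UMI-tools, Subread 1.6.0 and featureCounts, and the build named is GRCm38. Each library is in 2 tables, and 0 entries differed between them once scaled back. Undoing the log2 and its added 1 left whole multiples of 1 unit per cell in 100% of entries (tolerance 0.01), from which UMI counts and CPM were taken. A gene seen in under 5% of a library's cells is listed at 0. No cell was removed and no doublet caller was run. Of 11447 identifiers 11439 matched GENCODE vM21, the source of symbols and coordinates.

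The library means of the log2 values entered limma 3.58.1 (R 4.3.3) for 9254 genes (two-sided, Benjamini-Hochberg over all of them, threshold 0.05). Genotype was fitted beside a diet factor, on the diet tables. Slopes used the time-course tables, with own levels per genotype. The fits were checked on simulated data. Members were described by class. Those named were the 5 largest slopes each way among those past the threshold, the 3 highest in mean CPM per class, the 5 largest genotype effects each way, the 4 largest differences each way on each diet, and members listed in 1 genotype alone. Other members that passed were named as well, and Slc26a2, Slc31a1, Slc11a2, Slc39a14 and those of the Col2a1 sets were named after their values were seen. The members, classes and lists were chosen with earlier results of these data known. A shallower cell gives lower mean log2 values for a sparse gene at equal CPM, so slopes and CPM can part. A few genes that the rules name are not reported here.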

Additional observations from a re-analysis of the deposited data

How the results depend on the processing

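The genotype effect called 0 members under 8 other scalings, filters and cell sets and 0 to 1 when libraries were left out. The common slope called 2 members. It called 0 on linear CPM means with 1 or 0.1 added, with trimmed-mean factors and with thinned cells. It also called 0 with the rank of time and for HFD against ND. With no filter it called 1 (0.671% against 3.36% of all genes), and 12 with values from the diet tables (8.57% against 14.5%). Leaving out libraries gave 0 to 3. The KO slope called 25 members, and 47 and 41 on linear means with 1 and 0.1 added (33.6% and 29.3%, against 26.7% and 23.9% of all genes). With trimmed-mean factors it called 48 (34.3% against 27.1%), and 15 with only genes listed in all libraries (13.4% against 18.7%). With thinned cells it called 9 (6.43% against 8.08%), and 1 with the rank of time (0.714% against 0.94%). Leaving out libraries gave 0 to 41. On ND 3 members differed by 1 or more with 0.1 added in place of 1. The Apoe slope and the difference of slopes called 0 members under every alternative run. The causes were not tested.

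Single values turned sign only when the 4M libraries or KO 4M were left out. Over the libraries left out, the KO slope of Slc20a1 ran from -0.0202 to 0.4387 and that of Slc23a2 from -0.0003 to 0.0726. The genotype effect of Slc48a1 ran from -0.2658 to 0.0130 and that of Slc35a2 from -0.0014 to 0.1971. The difference of slopes of Slc20a1 ran from -0.0241 (without KO 4M) to 0.4270. The diet factor matches the libraries of a diet in the genotype effect; beyond that no paired analysis was possible because each genotype and diet had 1 library. Depth limits genes near the 5% of cells under which a library lists them at 0.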
